A study of Mus musculus with 29 samples.

Results

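This report describes 40 genes of vesicle transport between the endoplasmic reticulum (ER) and the Golgi, in mouse macrophages stimulated with cytokines. The genes were taken from a list of COPII coat, cargo receptor, COPI coat and fusion genes, and each was measured by the probe sets annotated to that gene alone. Of the 40 genes, 38 had such a probe set, 65 probe sets in all among 22690 on the array, and 37 passed the filter on low values, among 7153 genes tested. Sec24a had no probe set, and Tmed2 had 6 probe sets that it shared with another gene, so neither was measured. Kdelr3, a receptor that retrieves ER proteins, was measured but stayed under the filter, with a mean log2 intensity of 5.61 ± 0.177 with IL-4 plus IL-6 (SD, n = 5), 5.36 with IL-4 plus IL-10 and 4.75 in unstimulated cells.

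The macrophages were grown from bone marrow of C57BL/6 mice of wild type, 8 weeks old. Marrow cells were kept for 7 days in Teflon bags with CSF-1 (10 ng/ml), the growth factor that drives macrophage differentiation. They were then kept for 24 h with CSF-1 at 10 ng/ml and with IL-4 plus IL-6 (5 arrays), IL-4 plus IL-10 (3), IL-4 (5), IL-6 (5) or IL-10 (3), each cytokine at 10 ng/ml, or with no added cytokine (8 unstimulated arrays). All groups, the unstimulated one included, thus held CSF-1, and the cells grew in suspension. The study's title concerns cytokine control of cathepsin secretion by tumor-associated macrophages, and cathepsins enter the secretory pathway through the ER. No label ties the arrays to separate mice or cultures. The p-values therefore measure only the spread between arrays, which may be technical. In RNA of whole cultures, fewer cells of a type and less RNA per cell cannot be told apart.

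Proteins made in the ER leave it in vesicles coated by COPII. The exchange factor Preb loads the GTPase Sar1 with GTP, Sar1 recruits the inner coat of Sec23 and Sec24, which binds cargo, and Sec13 with Sec31 closes the outer cage. Coat protein complex I, recruited by ARF GTPases, carries escaped ER proteins and cargo receptors back. SNARE proteins and tethering factors dock and fuse these vesicles, and cells with a high secretory load are known to make more of this machinery, in part through the transcription factors XBP1, ATF6 and the CREB3L family.

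Each value is the deposited log2 intensity of the gene's probe set with the highest mean, and calls were made where the adjusted p was under 0.05 (limma, Benjamini-Hochberg over the 7153 genes). Array medians lay between 6.94 and 7.04 and correlations between arrays between 0.973 and 0.998. All 7 macrophage markers were above the filter in each group, and the markers of T and NK cells, of mast cells, basophils and eosinophils, and of fibroblasts were all under it. Of the dendritic cell markers Ccr7 alone passed it, with IL-4 (7.14) and IL-4 plus IL-10 (7.29), against 6.41 in unstimulated cells. Of the 2 erythroid and megakaryocyte markers measured, Pf4 passed in every group, from 10.52 with IL-4 to 12.84 with IL-10, against 11.47 in unstimulated cells. The other, Hba-a1, stayed under the filter, with group means from 4.36 to 4.48. The part of such cells was not tested. The summed B and plasma cell markers ranged over log2 11.46 to 12.96 with IL-4 plus IL-6, 10.44 to 10.58 with IL-4 plus IL-10 and 11.16 to 13.00 in unstimulated cells, and the part of these cells in the results was not tested. The summed neutrophil markers, of which S100a8, S100a9, Camp and Ltf were above the filter, ranged over 11.76 to 12.18 with IL-4 plus IL-6, 12.06 to 12.66 with IL-4 plus IL-10 and 12.53 to 13.21 in unstimulated cells, and their part was not tested. The 3′ minus 5′ difference of the Actb probe sets, a measure of RNA quality, averaged 0.363 with IL-4 plus IL-6, 0.419 with IL-4 plus IL-10 and 0.364 in unstimulated cells. It lay between 0.345 and 0.391 with IL-4 plus IL-6, above unstimulated arrays 1 to 5 (0.309 to 0.329), and between 0.377 and 0.441 with IL-4 plus IL-10, overlapping unstimulated arrays 6 to 8 (0.366 to 0.504). Its part in the results was not tested.

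Unstimulated arrays 6 to 8 stood apart from arrays 1 to 5. The replicate numbers place arrays 6 to 8 with the 3 arrays each of IL-10 and IL-4 plus IL-10, and arrays 1 to 5 with the other groups, although no label states such a set. Between the unstimulated sets, 13 of the 37 members did not overlap. The share of all genes without overlap between these sets was not computed, so the split cannot be called particular to these members. Preb averaged log2 10.58 on arrays 6 to 8 and 9.76 on arrays 1 to 5, the largest gap among the members. Ykt6 averaged 10.49 on arrays 6 to 8 and 9.83 on arrays 1 to 5, and Copb2, the third, 10.46 on arrays 6 to 8 and 10.70 on arrays 1 to 5. Comparisons within a set are therefore given beside the results for these genes and for IL-10.

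With IL-4 plus IL-6, nearly the whole machinery was higher than in unstimulated cells. Of the 37 members, 33 were called higher, where 35% of all genes were, and 2 were called lower, where 38.8% were. All 9 genes of the COPI coat and its ARF GTPases rose, as did 8 of 9 COPII genes, 8 of 9 cargo receptors and p24 proteins and 8 of 10 SNAREs and tethers. The largest increases were those of the cargo receptor Lman1, by 0.78 on the log2 scale (SE 0.0415, 1.72-fold, adjusted p = 8.98e-16), the inner coat gene Sec24d, by 0.77 (SE 0.0416, 1.70-fold, adjusted p = 1.21e-15), and the SNARE Bet1, by 0.74 (SE 0.0558, 1.67-fold, adjusted p = 2.01e-12). At a log2 difference of at least 0.5, which is 1.41-fold, 14 members passed, where 10.7% of all genes did: Sec13, Sec23b, Sec24d, Sec31a, Sar1a, Lman1, Mcfd2, Tmed3, Tmed9, Copg1, Cope, Copz1, Bet1 and Sec22b. The median log2 difference was 0.409 over the members and -0.0173 over all genes tested. Arrays of the groups did not overlap for 29 members that were higher, where 23.6% of all genes were. The 2 called lower were the p24 protein Tmed10, which fell by 0.49 on the log2 scale, and the brighter probe set of the Golgi SNARE Gosr1, whose other probe set was called higher, so that no direction can be given for Gosr1.

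With IL-4 plus IL-10, 30 members were called higher, where 38.1% of all genes were, and Tmed10 and the brighter Gosr1 probe set were called lower, where 34% were. Within the set of arrays the count higher was 26, where 29.8% of all genes were. Over all arrays the largest log2 increases were those of Preb (0.89, SE 0.163, 1.85-fold, adjusted p = 2.23e-05), Ykt6 (0.80, SE 0.138, 1.74-fold, adjusted p = 1e-05) and the COPI subunit Copg1 (0.68, SE 0.0475, 1.60-fold, adjusted p = 7.35e-13). Within the set of arrays Preb differed by 0.38 (adjusted p = 6.05e-03) and Ykt6 by 0.39 (adjusted p = 3.1e-03), and the largest increases there were those of Tmed3 (0.64), Lman1 (0.61) and Copg1 (0.60). At a log2 difference of at least 0.5, 12 members passed, where 12.1% of all genes did: Preb, Ykt6, Copg1, Bet1, Sec13, Tmed3, Lman1, Tmed9, Cope, Sec23b, Lman2 and Copz1. Within the set 9 passed, where 10.8% of all genes did. A dimmer Lman2 probe set differed by only 0.14 within the set. Arrays of the groups did not overlap for 25 higher members, where 29.3% of all genes did not. The median log2 difference was 0.36 over the members and 0.0177 over all genes. The KDEL receptors Kdelr1 (0.12) and Kdelr2 (0.18) and the cargo receptor Surf4 (0.28) lost their calls when 1 array was left out: Kdelr2 without IL-4 plus IL-10 replicate 1 (0.08, adjusted p = 0.197), Kdelr1 without replicate 2 (0.08, adjusted p = 0.159) and Surf4 without replicate 3 (0.21, adjusted p = 0.114). Arcn1 (0.09) lost its call without any 1 of 4 arrays, the values lying between 0.05 and 0.09. Surf4 was read on the brightest of its 5 probe sets. The dimmer ones averaged 9.72, 10.35, 10.69 and 9.68 with IL-4 plus IL-10. On unstimulated arrays 6 to 8 they averaged 9.17, 9.78, 10.22 and 9.67, in the same order.

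The single cytokines gave smaller differences, with medians over the members of 0.0744 for IL-4, 0.102 for IL-6 and 0.0857 for IL-10 on the log2 scale. IL-4 raised 16 of 37 members, where 27.6% of all genes were higher, and lowered Mcfd2, where 31.9% were lower. IL-6 raised 20, where 16.1% of all genes were higher, and lowered Tmed10, where 23.2% were lower. IL-10 raised 15, where 18.3% were higher, and lowered 0 by limma's adjusted p, where 19.5% of all genes were lower, with only the brighter Gosr1 probe set at an unadjusted p under 0.05. At a log2 difference of at least 0.5, Preb with IL-10 was the only member to pass under a single cytokine, where 5.3% (IL-4), 3.83% (IL-6) and 4.26% (IL-10) of all genes passed upward, and within the set Preb differed by 0.33 and did not pass. Groups did not overlap for 9 higher members with IL-4 (15.9% of all genes), 8 with IL-6 (9.44%) and 8 with IL-10 (11.2%). Against unstimulated arrays 6 to 8 alone, 3 members were called with IL-10 (Preb, Sec24d and Uso1), where 8.01% of all genes were called higher. With a term for the set of arrays, 10 were called higher with IL-10, where 12.3% of all genes were.

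**Figure D1:**
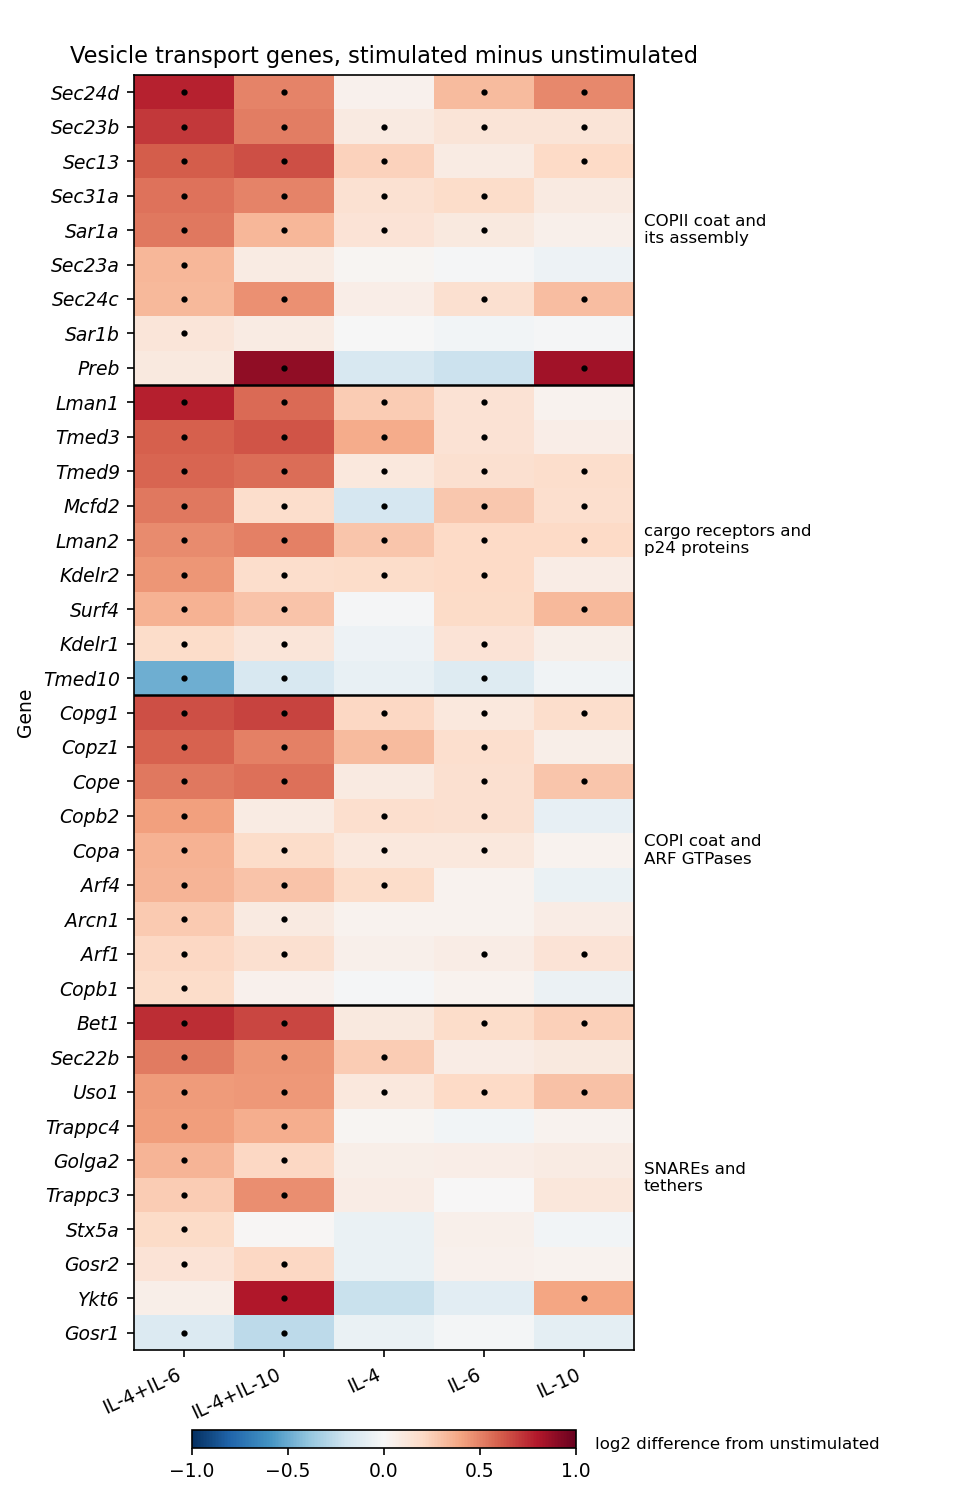
Log2 difference from unstimulated cells for each of the 37 tested members (rows, by role) under the 5 stimulations (columns), as colour, with a black dot where the gene was called. The column of IL-4 plus IL-6 holds 33 members called higher and that of IL-4 plus IL-10 holds 30, against 16, 20 and 15 with IL-4, IL-6 and IL-10 alone.

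Sec23b, Lman2, Tmed9, Copg1 and Uso1 were called higher under all 5 stimulations over all arrays. The share of all genes called so often was not computed, so recurrence cannot be called particular to these members. With a term for the set, the IL-10 calls of Sec23b (adjusted p = 0.0719), Tmed9 (adjusted p = 0.175) and Copg1 (adjusted p = 0.132) were lost, and within the set, of these 5 genes, Uso1 alone was called with IL-10 (0.24, adjusted p = 0.0432). Leaving out 1 array ended the IL-10 calls of Lman2 (without IL-10 replicate 2, 0.15, adjusted p = 0.0649) and Tmed9 (without IL-10 replicate 1, 0.13, adjusted p = 0.1), and the IL-4 call of Tmed9 was lost without any 1 of 9 arrays, the values lying between 0.09 and 0.11. Sec23a, Sar1b, Copb1 and Stx5a were called higher under 1 stimulation each, in every case IL-4 plus IL-6. The 5 stimulations share the unstimulated arrays, so calls under several of them are not independent of each other. Copg1 with IL-6 (0.10, adjusted p = 0.0447) lost its call when any 1 of 10 arrays was left out, the values lying between 0.08 and 0.11. Sec23b lost its call with IL-10 without IL-10 replicate 1 (0.08, adjusted p = 0.132) and with IL-4 without IL-4 replicate 3 (0.07, adjusted p = 0.058). The Lman2 calls rest on its brighter probe set. Within the set its dimmer one differed by 0.0223 with IL-4 plus IL-6, 0.138 with IL-4 plus IL-10, 0.0421 with IL-4, 0.0828 with IL-6 and 0.0561 with IL-10. The brighter one differed there by 0.435, 0.564, 0.239, 0.164 and 0.255, in the same order.

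Among the COPII coat genes, Sec24d and Preb had the widest range of group means. Sec24d encodes an inner coat subunit that selects cargo. Its log2 intensity was 10.48, 10.50, 10.47, 10.49 and 10.44 with IL-4 plus IL-6, 10.26, 10.13 and 10.21 with IL-4 plus IL-10, and 9.63 to 9.89 with a median of 9.68 in unstimulated cells. It was 9.71, 9.64, 9.84, 9.78 and 9.80 with IL-4, 10.02, 9.94, 10.06, 10.00 and 10.11 with IL-6, and 10.23, 10.11 and 10.21 with IL-10. Each array with IL-4 plus IL-6 lay above each array of every other group, arrays with IL-4 plus IL-10 overlapped those with IL-10, and arrays with IL-4 alone overlapped the unstimulated ones. Against unstimulated cells Sec24d differed by 0.50 with IL-4 plus IL-10 (SE 0.0494, adjusted p = 9.59e-10), by 0.04 with IL-4 (adjusted p = 0.374), by 0.32 with IL-6 (SE 0.0416, adjusted p = 4.85e-07) and by 0.48 with IL-10 (SE 0.0494, adjusted p = 8.71e-09). Within the set of arrays the IL-10 difference was 0.39 (adjusted p = 5.01e-03). With the replicate number as a block in the set of unstimulated arrays 1 to 5, IL-4 was called too, at 0.10 (adjusted p = 0.0367).

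Preb, also known as Sec12, is the exchange factor that starts coat assembly by loading Sar1 with GTP. Its log2 intensity was 10.24, 10.15, 9.99, 10.33 and 10.08 with IL-4 plus IL-6 and 11.13, 10.92 and 10.81 with IL-4 plus IL-10. It was 9.81, 9.89, 10.05, 9.97 and 9.81 with IL-4, 9.86, 9.87, 9.81, 9.76 and 9.94 with IL-6, and 10.98, 11.02 and 10.71 with IL-10. Unstimulated arrays 1 to 5 read 9.84, 9.74, 9.78, 9.71 and 9.72, and arrays 6 to 8 read 10.51, 10.70 and 10.52. The arrays with IL-4 plus IL-6 all exceeded unstimulated arrays 1 to 5 and all lay under arrays 6 to 8. Over all arrays Preb differed by 0.10 with IL-4 plus IL-6 (adjusted p = 0.537), and within its set by 0.40 (adjusted p = 5.96e-05, and 1.33e-04 with the replicate number as a block). Over all arrays it differed by 0.84 with IL-10 (SE 0.163, adjusted p = 1.57e-04), and within the set by 0.33 (adjusted p = 0.049). A dimmer Preb probe set averaged 9.44 on unstimulated arrays 6 to 8 and 9.49 on arrays 1 to 5, thus without the gap, and was higher with IL-4 plus IL-6 by 0.33 (adjusted p = 1.56e-07) and with IL-4 plus IL-10 by 0.37 (adjusted p = 5.2e-07).

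Sec23b, which pairs with Sec24 in the inner coat and activates the GTPase of Sar1, had its largest differences with the combinations. It read 11.17, 11.05, 11.08, 11.07 and 11.08 with IL-4 plus IL-6, 10.89, 10.91 and 10.89 with IL-4 plus IL-10, and 10.33 to 10.45 in unstimulated cells. All arrays of both combinations lay above all other arrays. The difference was 0.71 with IL-4 plus IL-6 (SE 0.0318, 1.63-fold, adjusted p = 1.63e-17) and 0.51 with IL-4 plus IL-10 (adjusted p = 2.08e-12), against 0.09 with IL-4, 0.13 with IL-6 and 0.13 with IL-10. Within the set the IL-10 difference was 0.11 and was not called (adjusted p = 0.332). Of the outer cage, Sec13 differed by 0.60 with IL-4 plus IL-6 and 0.65 with IL-4 plus IL-10, and its partner Sec31a by 0.55 with IL-4 plus IL-6 and 0.50 with IL-4 plus IL-10. The paralog Sec23a differed by 0.33 with IL-4 plus IL-6 and by 0.08 with IL-4 plus IL-10, the second not called. The GTPase Sar1a differed by 0.53 with IL-4 plus IL-6, and its paralog Sar1b by 0.12.

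Letters known to be bound by XBP1 and ATF6 stood in a larger share of the listed genes' promoters than of all promoters. RefSeq sequence (GRCm38.p6) from 250 bases before to 50 after the start was at hand for 35 of the 40 genes and was searched on both strands. The unfolded protein response element TGACGTGG occurred in 7 of the 35 (20%), against 0.714% of 27025 genes and 1.12% of the 5916 tested genes with a promoter: Arf1, Copb1, Copb2, Kdelr3, Sec23a, Sec24d and Stx5a. Its inner letters GACGTG, which each such element contains, occurred in 16 of the 35 (45.7%), against 7.15% of all genes and 11.9% of those tested. The ER stress elements ERSE and ERSE-II, which join the letters CCAAT, or their complement, to CCACG, occurred in 0 of the 35, against 0.137% and 0.0444% of all genes. The STAT motif TTCNNNGAA occurred in 4 of the 35 (11.4%), against 9.55% of all genes, in Bet1, Copb2, Copz1 and Sec23b. The STAT6 type of this motif, with 4 spacer bases in place of 3, occurred in 1 of the 35 (2.86%), Gosr2. It occurred in 8.01% of all genes and 6.74% of those tested. The 4 promoters in which the 8 letters end before the start are shown because they show where the element stood in each. The strands printed are those of the genes, 5′ to 3′, the capitals mark the element or its reverse complement, and in Sec24d the element ended 18 bases before the start, in Copb1 20, in Kdelr3 22 and in Arf1 76.
Sec24d, chr3:123267459-123267488, plus strand: gcccgggcgccTGACGTGGcactagcaacc
Copb1, chr7:114254690-114254719, minus strand: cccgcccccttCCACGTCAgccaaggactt
Kdelr3, chr15:79516367-79516396, plus strand: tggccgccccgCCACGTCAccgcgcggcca
Arf1, chr11:59228228-59228257, minus strand: gcggcaggcgcTGACGTGGctgccgtcagc
Copb1 and Kdelr3 thus carried it on the other strand, and for Arf1 a second annotated start places the same letters after the start. The letters are set beside the responses as a description. With IL-4 plus IL-6 the median log2 difference was 0.272 over the 6 tested members with TGACGTGG and 0.424 over the 27 without it, and with IL-4 plus IL-10 it was 0.0795 with the letters and 0.457 without. For the shorter GACGTG the medians with IL-4 plus IL-6 were 0.409 over 15 members with it and 0.348 over 18 without. With IL-4 plus IL-10 the order was the reverse, 0.334 with it and 0.455 without. A match is a description of the sequence and shows no binding.

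Among the cargo receptors, Lman1 and Mcfd2 form a complex that carries glycoproteins, coagulation factors among them, out of the ER. Lman1 (also ERGIC-53) read 10.68, 10.71, 10.88, 10.77 and 10.87 with IL-4 plus IL-6, 10.60, 10.60 and 10.50 with IL-4 plus IL-10, and 9.88 to 10.10 with a median of 10.02 in unstimulated cells. It read 10.21, 10.19, 10.31, 10.27 and 10.28 with IL-4, 10.11, 10.06, 10.20, 10.16 and 10.20 with IL-6, and 10.13, 9.99 and 10.00 with IL-10. Both combinations lay above all other groups, IL-4 alone lay above the unstimulated arrays without overlap, and IL-10 alone overlapped them. The difference was 0.57 with IL-4 plus IL-10 (SE 0.0493, 1.48-fold, adjusted p = 6.96e-11), 0.25 with IL-4 (adjusted p = 8.78e-06) and 0.04 with IL-10 (adjusted p = 0.599). The dimmest tested Lman1 probe set gave 1.42 with IL-4 plus IL-6 and 1.12 with IL-4 plus IL-10, both called. The other tested one averaged 9.53 on unstimulated arrays 6 to 8 and 8.88 on arrays 1 to 5, and differed within the set by 1.03 with IL-4 plus IL-6 and 0.72 with IL-4 plus IL-10, and a further Lman1 probe set stayed under the filter.

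Mcfd2, the soluble partner of Lman1, did not follow it under IL-4 alone. It read 11.68, 11.61, 11.65, 11.66 and 11.59 with IL-4 plus IL-6, 11.27, 11.34 and 11.26 with IL-4 plus IL-10, and 11.02 to 11.17 with a median of 11.12 in unstimulated cells. It read 10.89, 10.88, 11.05, 10.93 and 10.98 with IL-4, 11.42, 11.40, 11.41, 11.33 and 11.38 with IL-6, and 11.33, 11.32 and 11.21 with IL-10. The arrays with IL-4 plus IL-6 were the highest of all, and those with IL-4 lay under the unstimulated ones apart from 1 that overlapped them. All arrays with IL-4 lay under unstimulated arrays 1 to 5 of their own set (11.12 to 11.16). Mcfd2 fell by 0.17 on the log2 scale with IL-4 (SE 0.0318, adjusted p = 4.08e-05), rose by 0.27 with IL-6 (adjusted p = 7.9e-08) and rose by 0.52 with both (SE 0.0318, 1.44-fold, adjusted p = 1.62e-14).

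The p24 proteins, which cycle between ER and Golgi and help to sort cargo, moved in opposite directions. Tmed3 differed by 0.60 with IL-4 plus IL-6 (SE 0.037, adjusted p = 2.49e-14), 0.63 with IL-4 plus IL-10 (SE 0.0439, adjusted p = 7.09e-13) and 0.37 with IL-4 (adjusted p = 1.57e-09), the largest IL-4 difference of any member. Tmed9 differed by 0.59 with IL-4 plus IL-6 and 0.56 with IL-4 plus IL-10. Tmed10 read 11.59, 11.47, 11.49, 11.50 and 11.47 with IL-4 plus IL-6, 11.89, 11.86 and 11.77 with IL-4 plus IL-10, and 11.89 to 12.09 with a median of 11.99 in unstimulated cells. Arrays with IL-4 plus IL-6 lay under all other arrays. The decrease was 1.41-fold with IL-4 plus IL-6 (adjusted p = 7.38e-12) and 1.12-fold with IL-4 plus IL-10 (adjusted p = 3.87e-03), and it came from the single probe set of Tmed10 alone, since 4 more were shared with another gene. With IL-6 alone Tmed10 differed by -0.13 (adjusted p = 9.16e-03), which was not called with the replicate number as a block in unstimulated arrays 1 to 5 (-0.08, adjusted p = 0.0632).

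**Figure D2:**
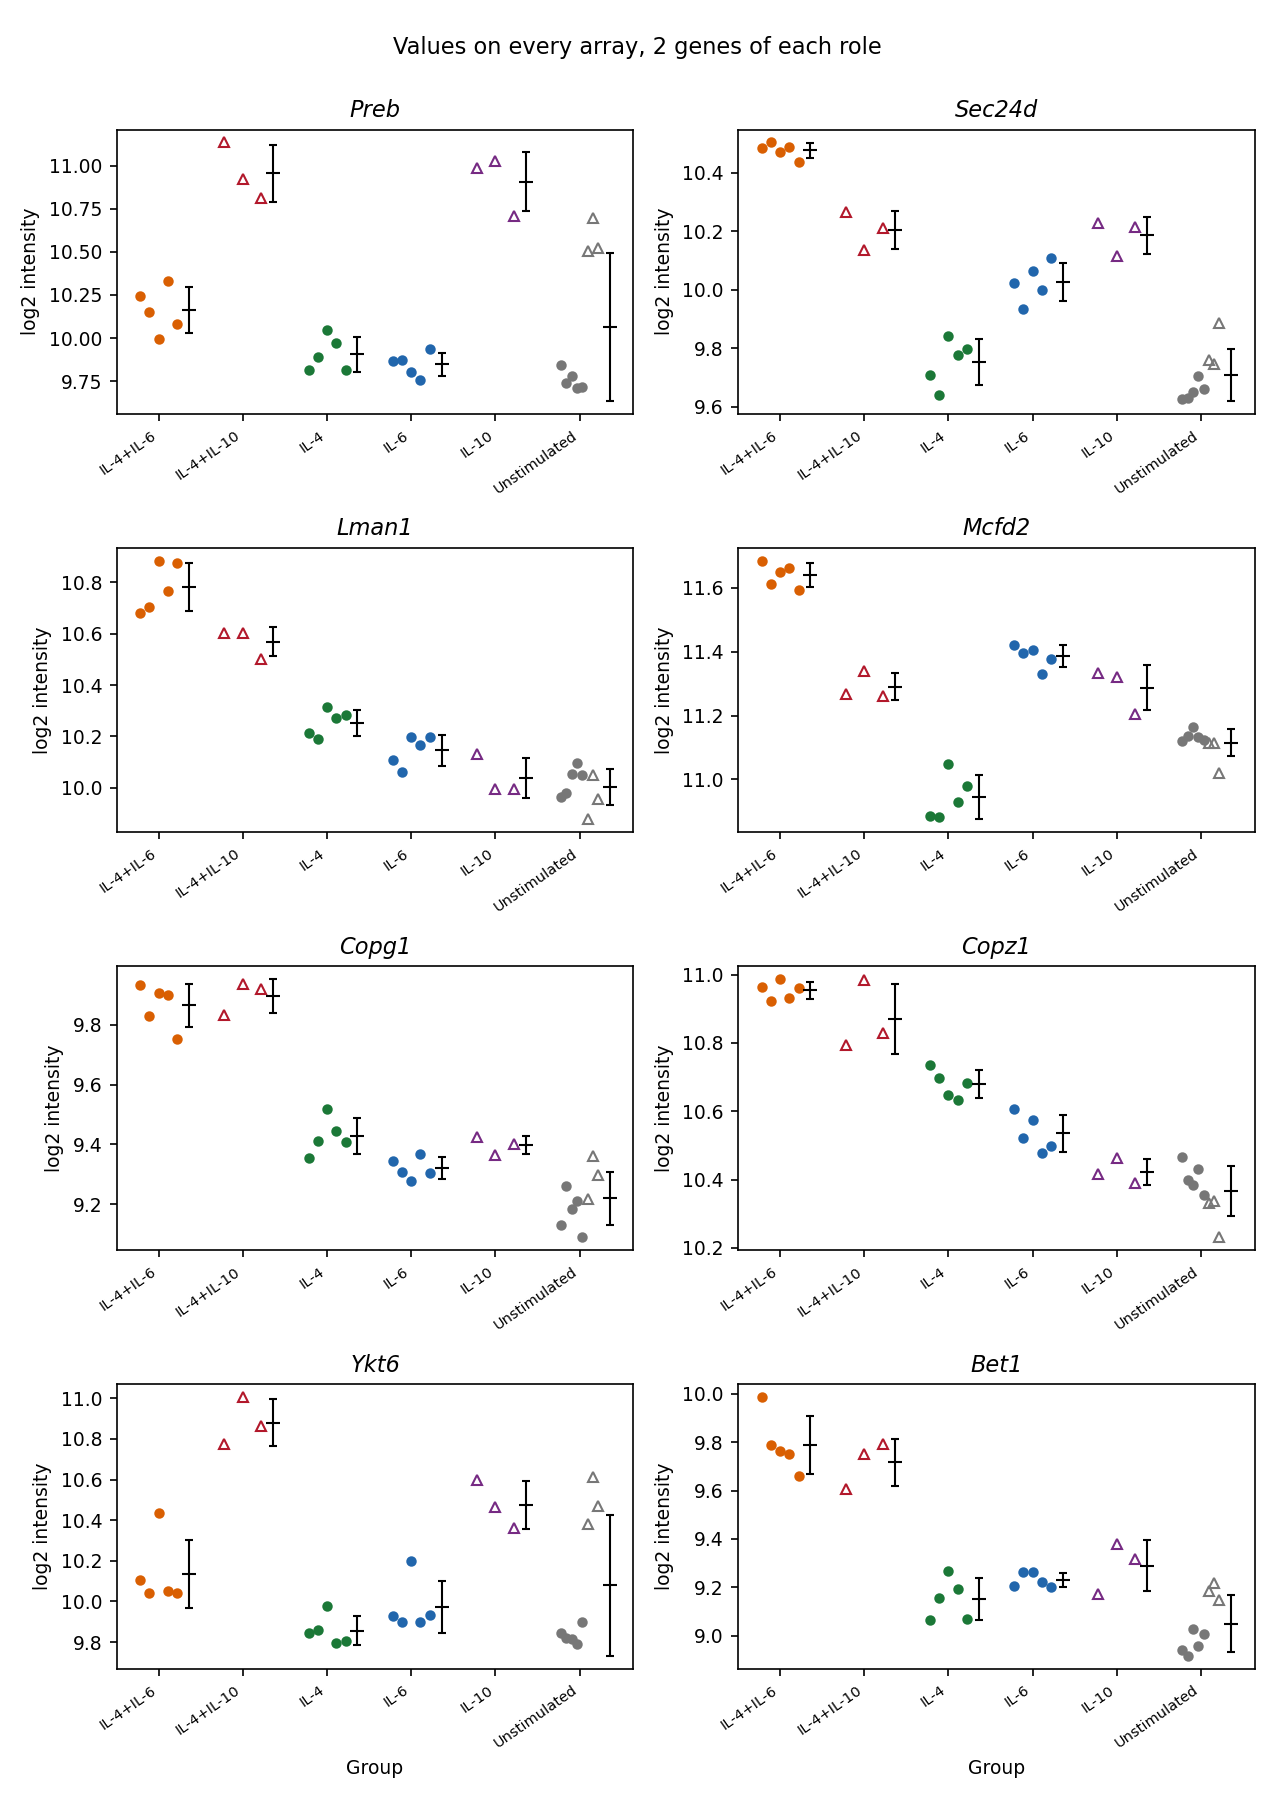
Log2 intensity on every array (points) of the 2 members of each role with the widest range of group means, by group, with crosses for the mean ± SD and open triangles for arrays of the set that holds both IL-10 groups and unstimulated arrays 6 to 8. Lman1, Copg1, Copz1 and Bet1 lie higher in both combinations than in unstimulated cells without overlap, and Preb and Ykt6 split the unstimulated arrays by set.

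Of the COPI coat, Copg1 and Copz1 had the widest range. Copg1, the gamma subunit that binds ARF and cargo, read 9.93, 9.83, 9.91, 9.90 and 9.75 with IL-4 plus IL-6, 9.83, 9.94 and 9.92 with IL-4 plus IL-10, and 9.09 to 9.36 with a median of 9.21 in unstimulated cells. It read 9.36, 9.41, 9.52, 9.45 and 9.41 with IL-4, 9.35, 9.31, 9.28, 9.37 and 9.30 with IL-6, and 9.43, 9.37 and 9.40 with IL-10. The combinations overlapped each other and lay above every other array. Copg1 differed by 0.65 with IL-4 plus IL-6 (SE 0.04, 1.57-fold, adjusted p = 2.63e-14). A dimmer probe set of Copg1 gave 0.01 with IL-4 plus IL-6 (adjusted p = 0.883) and 0.18 with IL-4 plus IL-10, and against IL-6 alone it was called lower (-0.13), so the results for this gene rest on its brighter probe set.

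Copz1, the small zeta subunit of the coat, differed most among the COPI genes with IL-4 alone. It read 10.96, 10.92, 10.99, 10.93 and 10.96 with IL-4 plus IL-6, 10.79, 10.99 and 10.83 with IL-4 plus IL-10, and 10.23 to 10.47 with a median of 10.37 in unstimulated cells. It read 10.74, 10.70, 10.65, 10.63 and 10.68 with IL-4, 10.61, 10.52, 10.57, 10.48 and 10.50 with IL-6, and 10.42, 10.46 and 10.39 with IL-10. Each combination lay above IL-4 alone, IL-4 lay above IL-6, and IL-10 overlapped unstimulated arrays 1 to 5. All arrays with IL-10 lay above unstimulated arrays 6 to 8 of their own set (10.23 to 10.34). The differences were 0.59 with IL-4 plus IL-6 (SE 0.0363, adjusted p = 2.5e-14), 0.50 with IL-4 plus IL-10 (SE 0.0431, adjusted p = 4.69e-11), 0.31 with IL-4 (SE 0.0363, adjusted p = 2.56e-08) and 0.17 with IL-6 (adjusted p = 4.66e-04). The other COPI members rose less with IL-4 plus IL-6: Cope by 0.53, Copb2 by 0.41, Copa by 0.35, the delta subunit Arcn1 by 0.26 and Copb1 by 0.18. The GTPases Arf4 and Arf1, which recruit the coat, rose by 0.34 and 0.21. Copb2 differed by 0.08 with IL-4 plus IL-10 over all arrays, which was not called, and by 0.23 within its set (adjusted p = 9.48e-03). Copa was called with IL-4 (0.10) and with IL-6 (0.11), and in neither with the replicate number as a block in unstimulated arrays 1 to 5 (0.06 in both, adjusted p = 0.109 and 0.139).

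The SNARE Bet1, which acts in the fusion of ER-derived vesicles with the Golgi, had the largest difference of its role with IL-4 plus IL-6. It read 9.99, 9.79, 9.76, 9.75 and 9.66 with IL-4 plus IL-6, 9.61, 9.75 and 9.79 with IL-4 plus IL-10, and 8.92 to 9.22 with a median of 9.02 in unstimulated cells. It read 9.06, 9.16, 9.27, 9.19 and 9.07 with IL-4, 9.21, 9.26, 9.26, 9.22 and 9.20 with IL-6, and 9.17, 9.38 and 9.32 with IL-10. The combinations overlapped each other and lay above every other array, while each single cytokine overlapped unstimulated arrays 6 to 8 (9.15 to 9.22). All arrays with IL-4 and with IL-6 lay above unstimulated arrays 1 to 5 of their own set (8.92 to 9.03). Bet1 differed by 0.67 with IL-4 plus IL-10 (SE 0.0663, 1.59-fold, adjusted p = 8.96e-10) and by 0.24 with IL-10 (adjusted p = 5.32e-03), the second not called without IL-10 replicate 2 (0.19, adjusted p = 0.062) or within the set (0.11, adjusted p = 0.379). With the replicate number as a block in unstimulated arrays 1 to 5, IL-4 was called as well, at 0.18 (adjusted p = 3.11e-03), against 0.10 over all arrays.

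Ykt6, a lipid-anchored SNARE of several fusion steps, was the second member that split by set. It read 10.11, 10.04, 10.43, 10.05 and 10.04 with IL-4 plus IL-6, 10.77, 11.01 and 10.86 with IL-4 plus IL-10, 9.85, 9.86, 9.98, 9.80 and 9.81 with IL-4, 9.93, 9.90, 10.20, 9.90 and 9.93 with IL-6, and 10.60, 10.46 and 10.36 with IL-10. Unstimulated arrays 1 to 5 read 9.84, 9.82, 9.81, 9.79 and 9.90, and arrays 6 to 8 read 10.38, 10.62 and 10.47. Arrays with IL-4 plus IL-10 lay above all others, arrays with IL-10 alone overlapped unstimulated arrays 6 to 8, and arrays with IL-4 plus IL-6 lay above arrays 1 to 5. With IL-4 plus IL-6 Ykt6 differed by 0.06 over all arrays (adjusted p = 0.673) and by 0.30 within its set (adjusted p = 1.82e-03, and 2.29e-03 with the replicate number as a block). With IL-10 it differed by 0.39 over all arrays (adjusted p = 0.0253) and by -0.01 within the set (adjusted p = 0.938), and the call was also lost without IL-10 replicate 1 (0.33, adjusted p = 0.116) or replicate 2 (0.40, adjusted p = 0.0729). With IL-4 plus IL-10 it stayed called within the set, at 0.39 (adjusted p = 3.1e-03). Its dimmer probe set also averaged more on unstimulated arrays 6 to 8 (7.72) than on arrays 1 to 5 (7.20), and differed within the set by 0.71 with IL-4 plus IL-6 and 0.43 with IL-4 plus IL-10.

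**Figure D3:**
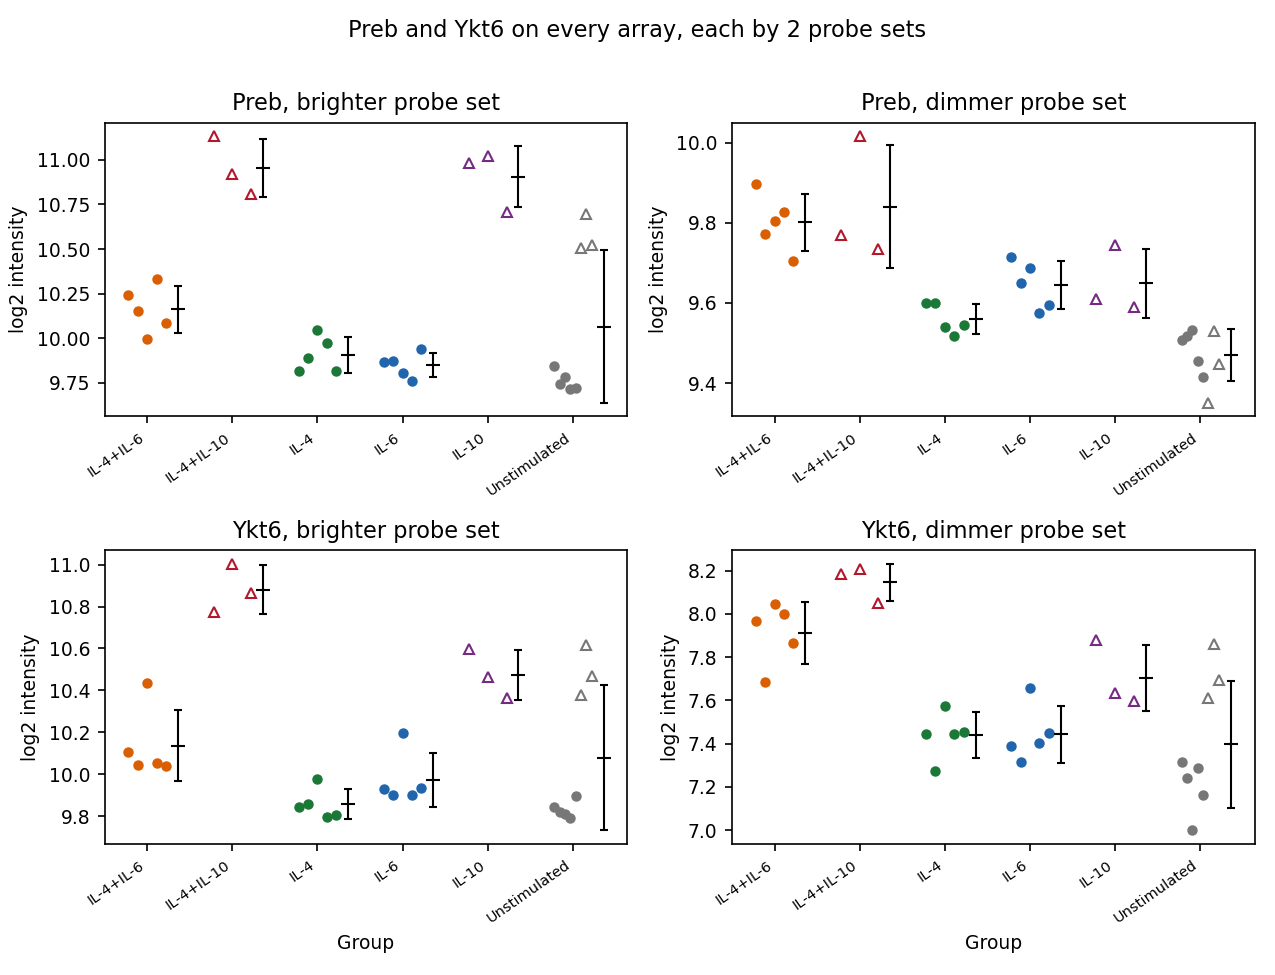
Log2 intensity on every array of both probe sets of Preb and of Ykt6, by group, with triangles for the set that holds both IL-10 groups and unstimulated arrays 6 to 8. The brighter Preb probe set averages 10.58 on unstimulated arrays 6 to 8 and 9.76 on arrays 1 to 5, the dimmer one 9.44 and 9.49, and both Ykt6 probe sets are higher on arrays 6 to 8.

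The tethers rose with less spread between members. Uso1 (p115), which holds vesicles to the Golgi, differed by 0.42 with IL-4 plus IL-6, 0.43 with IL-4 plus IL-10, 0.11 with IL-4, 0.20 with IL-6 and 0.29 with IL-10, all called. The TRAPP subunit Trappc4 differed by 0.41 with IL-4 plus IL-6 (adjusted p = 1.82e-11) and 0.36 with IL-4 plus IL-10 (adjusted p = 1.32e-08), and was called with no single cytokine. Trappc3 differed by 0.25 with IL-4 plus IL-6 and 0.47 with IL-4 plus IL-10, and the Golgi matrix protein Golga2 by 0.34 with IL-4 plus IL-6 and 0.20 with IL-4 plus IL-10. Of the remaining SNAREs, Sec22b differed by 0.52 with IL-4 plus IL-6 and 0.44 with IL-4 plus IL-10, and Gosr2 by 0.13 with IL-4 plus IL-6 and 0.21 with IL-4 plus IL-10. Stx5a, a syntaxin of the Golgi, differed by 0.19 with IL-4 plus IL-6 and by 0.01 with IL-4 plus IL-10, the second not called. A dimmer Sec22b probe set gave 0.04 with IL-4 plus IL-6 (adjusted p = 0.462), and for Gosr1 the dimmer probe set was called higher (0.48 with IL-4 plus IL-6 and 0.53 with IL-4 plus IL-10), opposite to the brighter one.

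Both combinations also exceeded their single cytokines in most members. Against IL-4 alone, IL-4 plus IL-6 was called higher for 33 members, where 29.4% of all genes were, led by Sec24d (0.72), Mcfd2 (0.70) and Bet1 (0.64), and lower for Tmed10 (-0.41), where 31.2% were lower. Against IL-6 alone it was called higher for 31, where 34% of all genes were, led by Lman1 (0.64), Sec23b (0.58) and Bet1 (0.56), and lower for Tmed10 and the brighter Gosr1 probe set, where 32.9% were lower. At a log2 difference of at least 0.5, 5 members passed against IL-4, where 8.04% of all genes did, and 5 against IL-6, where 8.54% did. In 31 of the 37 members it was called higher than unstimulated cells and than both single cytokines, where 18.1% of all genes were; the exceptions were Gosr1, Kdelr1, Preb, Surf4, Tmed10 and Ykt6. Tmed10 was lower in all 3 of these comparisons, where 19.2% of all genes were. Among the 31, Gosr2 lost its call against IL-6 without any 1 of 11 arrays, with values between 0.06 and 0.10. Within the set it was not called against IL-6. Trappc3 lost its call against IL-4 without any 1 of 6 arrays, with values between 0.15 and 0.18. The result for Surf4 rests on the brightest of its 5 probe sets, on which arrays with IL-4 plus IL-6 and with IL-6 overlapped. All 5 averaged higher with IL-4 plus IL-6 than with IL-4 or IL-6. On 2 dimmer ones the arrays with IL-4 plus IL-6 (9.83 to 9.90, and 10.41 to 10.67) lay above those with IL-6 (9.48 to 9.58, and 10.02 to 10.26) and with IL-4. With the replicate number as a block within the set, Preb was called higher than with IL-4 (0.25, adjusted p = 7.02e-03) and than with IL-6 (0.31, adjusted p = 1.26e-03), and Ykt6 likewise (0.28, adjusted p = 4.54e-04, and 0.16, adjusted p = 1.57e-03).

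IL-4 plus IL-10 was called higher than IL-4 for 26 members, where 32.7% of all genes were, and higher than IL-10 for 23, where 31.8% were. The brighter Gosr1 probe set was the 1 call lower in each, where 24.6% of all genes were lower against IL-4 and 28.1% against IL-10. It was the 1 member called lower than unstimulated cells and both single cytokines, where 12.9% of all genes were. The comparison with IL-4 lies wholly across the sets of arrays. With a term for the set, 24 members were called higher than with IL-4, where 17% of all genes were, and the 1 call lower was Tmed10, where 16.1% were lower. Against IL-10 alone the largest differences were those of Tmed3 (0.57), Lman1 (0.53) and Copg1 (0.50), while Sec24d (0.02, adjusted p = 0.817) and Mcfd2 (0.00, adjusted p = 0.969) were not called. Against IL-4 alone the largest were Preb (1.05), Ykt6 (1.02) and Bet1 (0.57), and with a term for the set of arrays Preb differed by 0.23 (adjusted p = 0.11) and Ykt6 by 0.37 (adjusted p = 0.0136). At a log2 difference of at least 0.5, 3 members passed against IL-4, where 6.53% of all genes did (0 with a term for the set, where 4.75% did), and 2 against IL-10, where 9.98% did. In 20 members the combination was called higher than unstimulated cells and both single cytokines, where 17.7% of all genes were. With a term for the set the count was 21, for which no share over all genes was computed. It shared 18 members with the 20, and Golga2 and Trappc3 were not among them. Golga2 lost its call against IL-10 without any 1 of 5 arrays, and Sec24c without any 1 of 3. Ykt6 against IL-10 (0.41, adjusted p = 0.0374) was not called without IL-10 replicate 2 or 3, or without IL-4 plus IL-10 replicate 2 or 3, with values between 0.34 and 0.41.

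The interaction, the log2 difference of the combination less the differences of its single cytokines, was positive for most members with IL-6. It was called positive for 23 of 37, where 21.4% of all genes were, and negative for Tmed10, where 18.6% were negative. The largest were those of Sec23b (0.48, SE 0.0474, adjusted p = 3.69e-09), Bet1 (0.46, SE 0.0834, adjusted p = 6.4e-05) and Mcfd2 (0.43, SE 0.0475, adjusted p = 3.59e-08), followed by Trappc4 (0.42), Sec24d (0.41), Lman1 (0.39) and Copg1 (0.34). The dimmer Copg1 probe set gave -0.26 (adjusted p = 5.12e-03), the opposite direction. The tested members' combination differences had a median of 0.409, against 0.215 for the sum of the single differences, and 34 of 37 lay above their sum. So did 3792 of the 7153 genes tested and 33 of 42 other pathway genes, a list described below. Sec23b differed by 0.709 with IL-4 plus IL-6, against a sum of 0.226, and Trappc4 by 0.415, against a sum of -0.00905. No member's interaction reached 0.5, where 5.1% of all genes passed upward. By role, 7 of 9 COPII genes, 6 of 9 COPI genes and 7 of 10 SNAREs and tethers had a positive call, against 3 of 9 cargo receptors and p24 proteins. Tmed3 (0.08, adjusted p = 0.245) and Copz1 (0.11, adjusted p = 0.126) were among those whose interaction was not called.

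With IL-10 the interaction was called positive for 12 members, where 15.5% of all genes were, and negative for 0, where 10.1% were, with 0 also at an unadjusted p under 0.05 (limma). The largest were those of Ykt6 (0.63, SE 0.203, adjusted p = 0.0234), Bet1 (0.33, SE 0.0975, adjusted p = 0.0146) and Trappc4 (0.31, SE 0.0607, adjusted p = 3.75e-04), followed by Sec23b and Copg1 (0.29 each). Ykt6 alone reached 0.5, where 3.7% of all genes did, and with a term for the set it was 0.38 (adjusted p = 0.0146) and 0 members reached 0.5. With that term 14 members were called positive, where 13.6% of all genes were. Sec24d was not called (-0.03, adjusted p = 0.822): its sum of single differences was 0.522 and its combination difference 0.495. The median combination difference was 0.36, against 0.19 for the sum, and 29 of 37 members lay above their sum. So did 4070 of the 7153 genes tested and 32 of 42 other pathway genes, a list described below. The median interaction was 0.118 over the members, 0.111 over those 42 and 0.0361 over all genes. Without IL-10 replicate 3 or IL-4 plus IL-10 replicate 2, the count of positive calls was 7, and Ykt6 was not called (0.57 in both, adjusted p = 0.0706). Bet1 was not called without IL-10 replicate 1 (0.27, adjusted p = 0.0563).

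**Figure D4:**
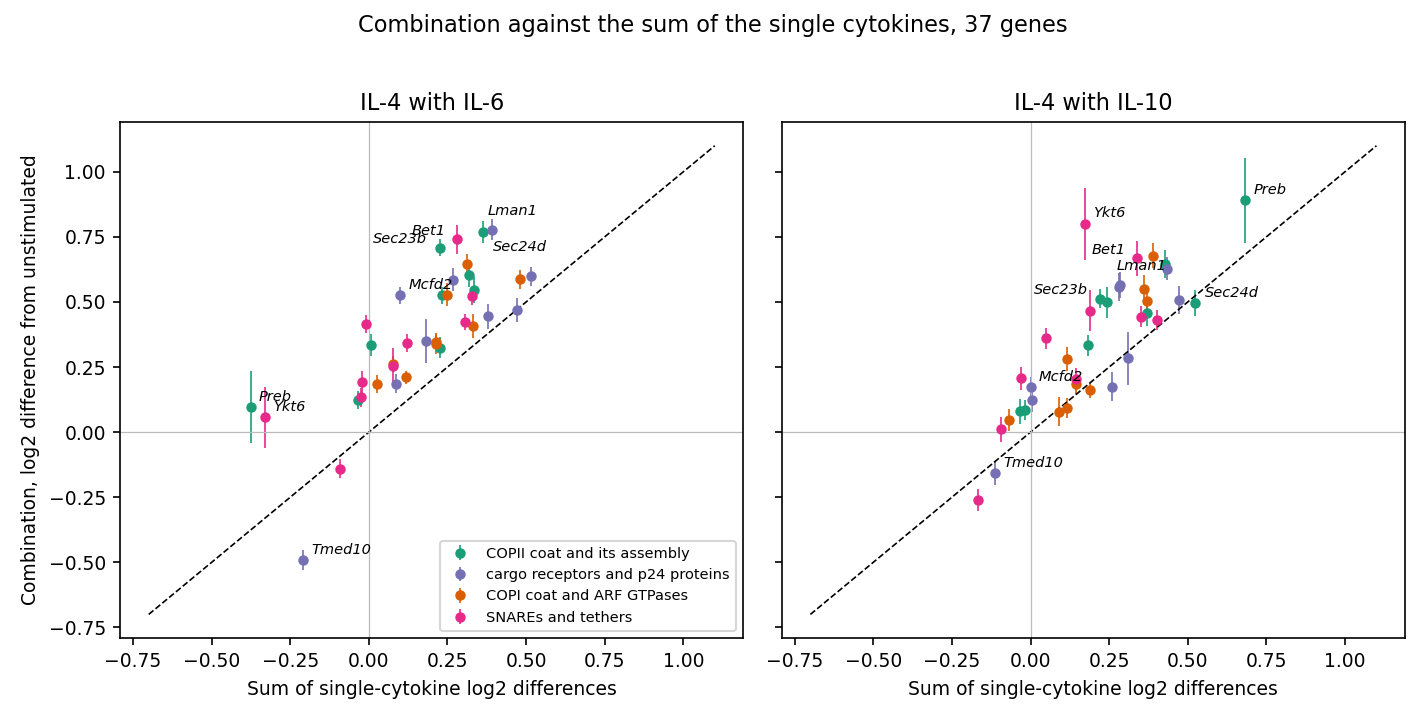
Log2 difference of the combination from unstimulated cells (y) against the sum of the differences of its single cytokines (x) for the 37 members, IL-4 plus IL-6 on the left and IL-4 plus IL-10 on the right, with bars for the SE and a dashed line where both are equal. With IL-6, 34 members lie above the line, and with IL-10, 29. Of all 7153 genes tested, which are not drawn, 3792 with IL-6 and 4070 with IL-10 exceeded their sum.

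By role, the median difference per array set both combinations above the other groups. Over the COPII genes, the median log2 difference from the unstimulated mean was 0.435 to 0.549 on the arrays with IL-4 plus IL-6, 0.404 to 0.522 with IL-4 plus IL-10, 0.0352 to 0.124 with IL-4, 0.0716 to 0.138 with IL-6, 0.0546 to 0.225 with IL-10 and -0.0508 to 0.0764 in unstimulated cells. Over the COPI genes it was 0.313 to 0.383 with IL-4 plus IL-6 and 0.19 to 0.231 with IL-4 plus IL-10. Over the cargo receptors and p24 proteins it was 0.475 to 0.56 with IL-4 plus IL-6 and 0.223 to 0.382 with IL-4 plus IL-10. Over the SNAREs and tethers it was 0.297 to 0.355 with IL-4 plus IL-6 and 0.317 to 0.436 with IL-4 plus IL-10. The combinations lie in different sets, so these ranges are no comparison between them. Measured from the unstimulated mean of its own set, the COPI median was 0.268 to 0.337 with IL-4 plus IL-6 and 0.206 to 0.306 with IL-4 plus IL-10, which overlap. So measured, the COPII medians and those of the SNAREs and tethers overlapped too. Those of the cargo receptors and p24 proteins did not, at 0.44 to 0.525 with IL-4 plus IL-6 and 0.256 to 0.415 with IL-4 plus IL-10.

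**Figure D5:**
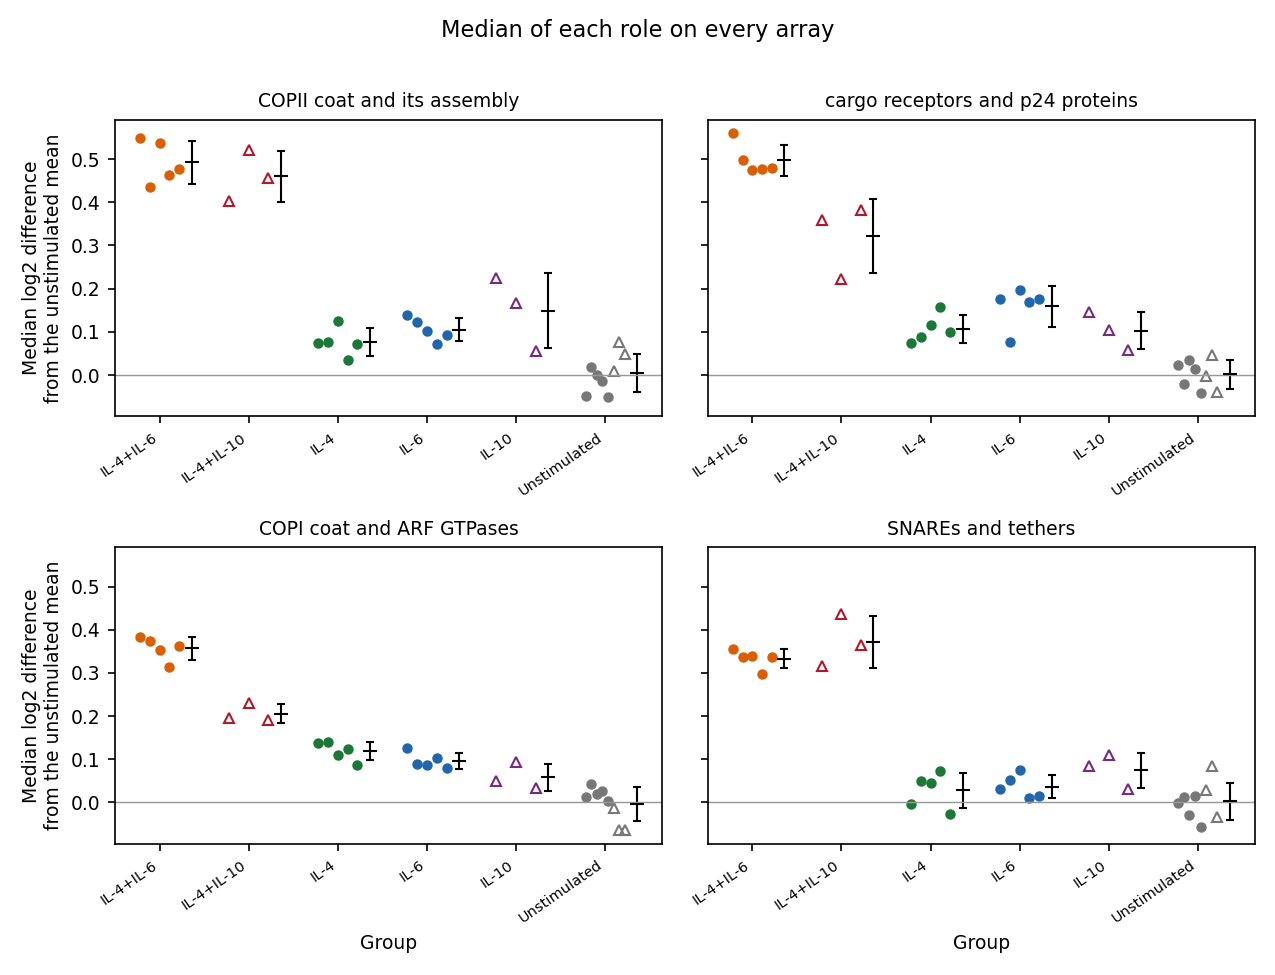
Median over the members of each role of the log2 difference from the unstimulated mean, 1 point per array, by group, with triangles for the set that holds both IL-10 groups and unstimulated arrays 6 to 8. The COPII medians are 0.435 to 0.549 with IL-4 plus IL-6 and -0.0508 to 0.0764 in unstimulated cells, and no array of either combination overlaps the unstimulated ones in any role.

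Other genes of the same pathway formed a separate list of 52, of which 42 were tested. With IL-4 plus IL-6, 24 were called higher (35% of all genes) and 6 lower (38.8%), with a median log2 difference of 0.175. With IL-4 plus IL-10, 24 were called higher (38.1% of all genes) and 3 lower (34%), with a median of 0.146. IL-4 gave 11 higher (27.6% of all genes) and 7 lower (31.9%), IL-6 gave 10 higher (16.1%) and 3 lower (23.2%), and IL-10 gave 14 higher (18.3%) and 5 lower (19.5%). The largest changes with IL-4 plus IL-6 were those of Erp44, a chaperone that retrieves secretory proteins (0.71, adjusted p = 6.16e-17), Nsf, the ATPase that takes SNARE complexes apart (0.56, adjusted p = 4.46e-13), and Scfd1, a SNARE regulator (0.56, adjusted p = 4.65e-12). With IL-4 plus IL-10 they were those of Arf5 (0.78, adjusted p = 9.27e-05, and 0.32 within the set, adjusted p = 6.25e-03), the Golgi stacking protein Gorasp2 (0.60, adjusted p = 1.66e-12) and Yif1a, a membrane protein of early Golgi traffic (0.48). With IL-4 alone the ER SNARE Use1 fell by 0.48 (adjusted p = 2.24e-07).

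The transcription factors known to act on secretory genes did not move as one. Xbp1 was higher by 0.31 with IL-4 plus IL-6 and 0.12 with IL-4 plus IL-10, and by 0.21 with IL-4, 0.21 with IL-6 and 0.18 with IL-10, all called. Creb3l2 was higher by 0.64 with IL-4 plus IL-6, 0.77 with IL-4 plus IL-10, 0.24 with IL-4, 0.31 with IL-6 and 0.52 with IL-10, all called. Atf6 was lower in the groups with IL-4, at -0.82 with IL-4 plus IL-6, -0.57 with IL-4 plus IL-10 and -0.59 with IL-4, and higher with IL-6 (0.24) and IL-10 (0.46), all called. These are RNA levels, which for XBP1 and ATF6 do not measure the splicing or cleavage that activates the proteins.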

How the data were processed

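RNA of bone marrow-derived macrophages was measured on 29 Affymetrix arrays. The deposited values are log2 intensities, 1 per probe set, which the authors made with RMA (background correction, normalization and summary of probes), per the submitters' processing notes. These notes also name GCOS 1.4. The RMA version, and whether the 29 arrays were processed in 1 run, are not given in the sources used here. The values run from 2.45 to 15.13 and were used without further normalization. No sample was left out, and precision is limited by how many arrays a group has.

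Of 22690 probe sets, 20380 name exactly 1 gene, 691 name several and 1606 none, and control probe sets were excluded. The probe set with the highest mean stood for a gene, and 7153 of 12393 genes, those above the overall median of 6.99 on 3 or more arrays, were tested. A linear model by group covered the 29 arrays (limma 3.58.1, R 4.3.3), with Benjamini-Hochberg adjustment over the genes tested and calls at an adjusted p under 0.05, in 9 pairwise comparisons and 2 interactions. The procedure was tested on simulated data.

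The members and lists were chosen with earlier results of these data known. Named are, per comparison, the 3 called members with the largest increase and the 3 with the largest decrease, the largest of each role and those at a log2 difference of at least 0.5. Values on every array are given for the 2 members of each role with the widest range of group means, and Sec23b and Tmed10 were added after their values were seen. Of the other pathway genes, up to 3 are named in a comparison.

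Replicate numbers from the titles pair the arrays within a set: in the set of unstimulated arrays 1 to 5, same-numbered arrays deviated together in all 5 of 5 pairs of every pair of groups (lowest r 0.457), as they did for IL-10 with IL-4 plus IL-10 (lowest 0.596). For unstimulated arrays 6 to 8 with IL-10, 2 of 3 pairs did. Alternatives covered normalization, filters, probe sets, variance models, the set, the replicate block and leaving out each array. Promoter sequences are RefSeq's (GRCm38.p6).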

Additional observations from a re-analysis of the deposited data

Results flagged for a closer look

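In groups of 4 to 10 arrays, 14 of 168 group ranges held 1 array whose gap to the nearest other exceeded the 95% critical value of Dixon's test, and chance gives about 5%. Arrays high in their group were Sec23b (11.17) and Sar1b (11.58) in IL-4 plus IL-6 replicate 1, Tmed10 (11.59) in the same array, Ykt6 in IL-4 plus IL-6 replicate 3 (10.43) and in IL-6 replicate 3 (10.20). The nearest others were 11.08 for Sec23b, 11.43 for Sar1b and 11.50 for Tmed10. The median over cargo receptors and p24 proteins stood apart in IL-4 plus IL-6 replicate 1 (0.56) and in IL-6 replicate 2 (0.0776). Further single arrays were Mcfd2 in unstimulated replicate 8 (11.02), Tmed9 (10.94), Cope (10.73) and Trappc3 (10.20) in unstimulated replicate 7, Arf1 in IL-4 replicate 5 (13.26), Arf4 in IL-6 replicate 2 (10.14) and Uso1 in IL-4 replicate 1 (10.93). All 3 single-gene values of IL-4 plus IL-6 replicate 1 were the highest of their group.

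The effect of IL-4 on Mcfd2 had opposite directions with and without IL-6. It was 0.25 on the log2 scale in cells that had IL-6 and -0.17 in cells that did not, and the difference between them, the interaction, was 0.43 (SE 0.0475, adjusted p = 3.59e-08, limma).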

How the results depend on the processing

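Counts of called members moved by at most 1.5 times under quantile normalization, median centring, other filters and other variance models, with the following exceptions. At a log2 difference of at least 0.5 the counts were 14 for IL-4 plus IL-6, 12 for IL-4 plus IL-10, 0 for IL-4, 0 for IL-6 and 1 for IL-10 against unstimulated cells, 5 for IL-4 plus IL-6 against IL-4, 5 against IL-6, 3 for IL-4 plus IL-10 against IL-4, 2 against IL-10, 0 for the interaction with IL-6 and 1 for that with IL-10. The interaction with IL-10 gave 5 at an adjusted p under 0.01. IL-10 gave 3 against unstimulated arrays 6 to 8 alone, a fit with fewer arrays, where 16.7% of all genes were called. IL-4 gave 26 with a term for the set and a random replicate block for numbers in the set. In that fit 65.5% of all genes were called. Leaving out 1 array in turn gave 35 to 35 for IL-4 plus IL-6, 30 to 33 for IL-4 plus IL-10, 15 to 20 for IL-4, 20 to 22 for IL-6 and 11 to 16 for IL-10, then 33 to 35 and 32 to 34 for IL-4 plus IL-6 against IL-4 and IL-6, 26 to 28 and 20 to 25 for IL-4 plus IL-10 against IL-4 and IL-10, and 20 to 26 and 7 to 15 for the interactions with IL-6 and with IL-10. Among differences called in at least 1 of the fits compared, directions turned for Gosr1 with the mean of its probe sets (0.17 for IL-4 plus IL-6 and 0.14 for IL-4 plus IL-10 against unstimulated cells, 0.15 against IL-4 and 0.21 against IL-6, 0.12 and 0.17 for IL-4 plus IL-10 against IL-4 and IL-10, 0.19 for the interaction with IL-6), where its probe sets disagree, and for Surf4 in IL-4 plus IL-10 against IL-10 likewise (0.13). With the set of arrays taken into account they turned for Preb with IL-4 (0.15, also with the replicate block), Copb2 in IL-4 plus IL-10 against IL-4 (0.15), Ykt6 with IL-6 (0.14) and Ykt6 with IL-10 (-0.014). The cause of these changes was not tested further. With the replicate number as a fixed block over all arrays, 364 of 407 gene results kept direction and call, 35 gained a call and 8 lost it. That fit joins the arrays with IL-10 and with IL-4 plus IL-10 to same-numbered arrays of the other set. It leaves unstimulated arrays 6 to 8 without a partner. For the comparisons with IL-10 it is therefore no check of the pairing within their set. In the block within unstimulated arrays 1 to 5 and their groups, 35 members were called higher with IL-4 plus IL-6 and 2 lower. Of all genes, 37.3% were called higher there and 38.7% lower. With IL-4 the counts were 20 higher (31.3% of all genes) and 3 lower (33%). With IL-6 they were 19 higher (20.2%) and 0 lower (25.8%).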

Other observations

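Outside the 37 members, Creb3l1 is a relative of Creb3l2 that activates secretory genes in bone-forming cells. It was called higher with IL-4 plus IL-6 (0.19), with IL-4 plus IL-10 (0.18) and with IL-4 (0.44), and lower with IL-10 (-0.31). Its means lay under the filter of 6.99 in every group but IL-4 (7.07), so the size of these log2 differences is uncertain. Within the set the call with IL-4 plus IL-6 was lost (adjusted p = 0.087). Tmed7, a p24 protein like Tmed10, was called lower with IL-4 plus IL-10 (-0.41, adjusted p = 1.64e-06) and not with IL-4 plus IL-6 (adjusted p = 0.966). Nsf was higher with IL-6 (0.43, adjusted p = 9.39e-10) and IL-10 (0.31, adjusted p = 7.22e-06), and lower with IL-4 (-0.17, adjusted p = 7.61e-04). The tests are limma's, with adjustment over all genes tested.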
